A study of Mus musculus with 6 samples.

Results

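The genes of the mitochondrial ribosome were measured by RNA-sequencing in whole lenses of newborn mice, as the genes whose symbol is Mrpl or Mrps followed by a number. The table of 13931 genes held 75 of them, with 47 named for the large subunit (Mrpl) and 28 named for the small subunit (Mrps). Mrpl33, Mrpl53 and Mrps6 carry such symbols too and were not analysed here. The 75 genes lie on 17 chromosomes, and chromosome 11 holds 11 of them.

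Lenses with a conditional knockout of Celf1, an RNA-binding protein, were compared with control lenses, with 3 libraries in each group, each from pooled postnatal day 0 (P0) lenses. Celf1cKO mice carried one germline knockout allele (Celf1lacZKI), one Celf1flox allele with loxP sites around an exon, and the Pax6GFPCre transgene, which drives Cre from the lens placode onwards and also in the pancreatic lineage. The control lenses are Celf1lacZKI/+ by their labels, so that both groups would share the germline knockout allele and the fold-changes would not be measured against intact Celf1. The methods of the study instead give Celf1flox mice without Cre as the usual control, so which genotype the controls had could not be settled here. All mice were of mixed C57BL/6 and FVB background.

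Mitochondrial ribosomes translate the few proteins that are encoded by mitochondrial DNA, all of them subunits of the oxidative phosphorylation complexes. The RNA of the ribosome comes from the mitochondrial genome, whereas every protein of the ribosome is encoded in the nucleus, made in the cytosol and imported. The small subunit reads the mRNA, and the large subunit holds the peptidyl transferase centre and the exit tunnel. Many of these proteins have bacterial counterparts, and the others were added during the evolution of mitochondria. In the lens, mitochondria are found in the epithelium and in young fiber cells, and fiber cells degrade them with the other organelles as they mature.

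Levels are the log2 of CPM (read counts scaled to a common library size) as the authors normalised them, and a log2 fold-change is the Celf1cKO mean minus the control mean on that scale. The 3 values of a group are given in the order of its libraries 1 to 3. Total reads on genes ranged from 40694454 to 44387151 per library. Between 212 and 3519 reads were counted on each mitochondrial ribosomal protein gene in each library, and all 75 had an average log2 CPM above 1, as did 10640 genes in all. A gene passed the test when its adjusted p-value was under 0.05 in limma, fitted to all genes of the table with Benjamini-Hochberg adjustment. It was called when the log2 fold-change also exceeded 0.58 in either direction and the average log2 CPM exceeded 1. Celf1 itself was reduced in Celf1cKO lenses, with 9.95, 9.94 and 9.34 log2 CPM in controls 1 to 3, and 8.93, 7.66 and 7.83 in the Celf1cKO libraries (log2 fold-change -1.60, standard error 0.335, limma adjusted p = 0.0269). Without 1 library the adjusted p of Celf1 from limma ranged from 0.00250 to 0.108. Celf1 missed the threshold in every such fit except that without Celf1cKO library 1. Over all genes, between 1 and 1916 were called in such fits, against 1030 with all libraries. Of 9 fiber cell markers measured, 5 were reduced, and their summed level was between 35634 and 40778 CPM in control and between 24676 and 27015 CPM in Celf1cKO libraries. The 7 epithelial markers, of which 1 was reduced, summed to between 614 and 643 CPM in the controls and to 521, 186 and 391 CPM in the Celf1cKO libraries. The 5 endothelial markers summed to between 61.8 and 82.5 CPM in the controls and to 81.3, 7.86 and 31.9 CPM in the Celf1cKO libraries. The 4 mesenchymal markers measured, of which 1 was reduced, summed to between 79.3 and 110 CPM in the controls and to 63.1, 18.0 and 30.03 CPM in the Celf1cKO libraries. Markers of retina, erythroid cells and macrophages each summed to at most 13.4 CPM, and those of cornea and skin were not analysed here. The part of these markers' cell types in the values below was not tested, and in whole lenses fewer cells of a type and less RNA per cell cannot be told apart.

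Differences in the mitochondrial ribosomal protein genes were small, with log2 fold-changes between -0.41 and 0.52. No member was called (0 of 75), where 9.68% of the expressed genes (those averaging more than 1 log2 CPM) were called. Of the members, 5 passed limma's test, all of them elevated in Celf1cKO lenses, where 14.6% of expressed genes passed in either direction. Among expressed genes, 9.82% passed as elevated and 4.75% as reduced. The 5 were Mrps17, Mrpl41, Mrpl57, Mrpl35 and Mrpl48, and their rises lay between 1.28-fold and 1.44-fold. The share of members that passed as elevated, 5 of 75, was below the 9.82% of expressed genes, and 0 members passed as reduced. Whether these shares differ was not tested. An unadjusted p-value under 0.05 was reached by 17 members, of which 14 were higher in Celf1cKO lenses. Of the 10640 expressed genes, 34% reached it, and 2085 did so as higher, a share close to that of the members. The other 9 of these 14 were Mrps18b, Mrpl32, Mrpl9, Mrps35, Mrpl40, Mrpl24, Mrpl27, Mrpl17 and Mrps28, with log2 fold-changes of 0.28 to 0.42 and limma adjusted p-values of 0.0709 to 0.163. With limma voom on the recovered reads, 0 members were again called and 4 passed the test, which were those named except Mrpl41.

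Mrps17 (ENSMUSG00000034211, chromosome 5, 129715497 to 129722556 on the + strand of GRCm38), a small subunit protein with a bacterial counterpart that binds ribosomal RNA, showed the largest rise. In the order of their numbers, the libraries of Mrps17 stood at 4.41, 4.39 and 4.16 log2 CPM in controls 1 to 3, and 4.72, 4.93 and 4.87 in libraries 1 to 3 from Celf1cKO lenses. The lowest Celf1cKO library was thus above the highest control library, with no overlap. The means were 4.32 ± 0.142 and 4.84 ± 0.108 (SD, n = 3 each), a log2 fold-change of 0.52 (standard error 0.117, limma adjusted p = 0.0328), from 700 to 811 reads per control library and 1131 to 1479 per Celf1cKO library.

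Mrpl41 (ENSMUSG00000036850, chromosome 2, 24974117 to 24975098 on the - strand of GRCm38) is a large subunit protein specific to mitochondria. It had levels of 4.28, 4.43 and 4.21 log2 CPM in the controls and 4.63, 5.0 and 4.78 in the Celf1cKO libraries. Its log2 fold-change was 0.49 (standard error 0.129, limma adjusted p = 0.0492), close to the threshold. Celf1cKO library 2 was the highest, and that group was more widely spread (SD 0.185) than the controls (SD 0.114, n = 3 each). A processed pseudogene, Gm6434, is 97.8% identical to most of the Mrpl41 coding sequence, and since only uniquely mapped reads were kept, its level is uncertain.

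Mrpl57 (ENSMUSG00000021967, chromosome 14, 57826234 to 57829296 on the + strand of GRCm38) is another mitochondrial addition to the large subunit. It had levels of 4.26, 4.26 and 4.05 log2 CPM in the controls and 4.56, 4.74 and 4.69 in the Celf1cKO libraries. The groups did not overlap, and the log2 fold-change was 0.47 (standard error 0.112, limma adjusted p = 0.0385). Control library 3 was the lowest of the 6 for Mrps17, Mrpl41, Mrpl57 and Mrpl35, but not for Mrpl48.

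Mrpl35 (ENSMUSG00000052962, chromosome 6, 71812997 to 71826969 on the - strand of GRCm38) is a large subunit protein with a bacterial counterpart. It had levels of 3.42, 3.36 and 3.32 log2 CPM in the controls and 3.86, 3.90 and 3.72 in the Celf1cKO libraries. Its log2 fold-change was 0.46 (standard error 0.119, limma adjusted p = 0.0477). It had the fewest reads of the 5, 380 to 408 per control and 623 to 722 per Celf1cKO library, and its groups did not overlap.

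Mrpl48 (ENSMUSG00000030706, chromosome 7, 100545751 to 100608301 on the - strand of GRCm38), a mitochondrial addition to the large subunit, had the tightest groups of the 5. Its levels were 4.46, 4.51 and 4.46 log2 CPM in the controls and 4.79, 4.86 and 4.84 in the Celf1cKO libraries. The log2 fold-change was 0.36 (standard error 0.0899, limma adjusted p = 0.0456). A pseudogene, Mrpl48-ps, is 98.1% identical to its coding sequence, and 708 exon bases are shared with Rab6a on the opposite strand. Whether reads were counted by strand is not given in the sources used here.

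**Figure D1:**
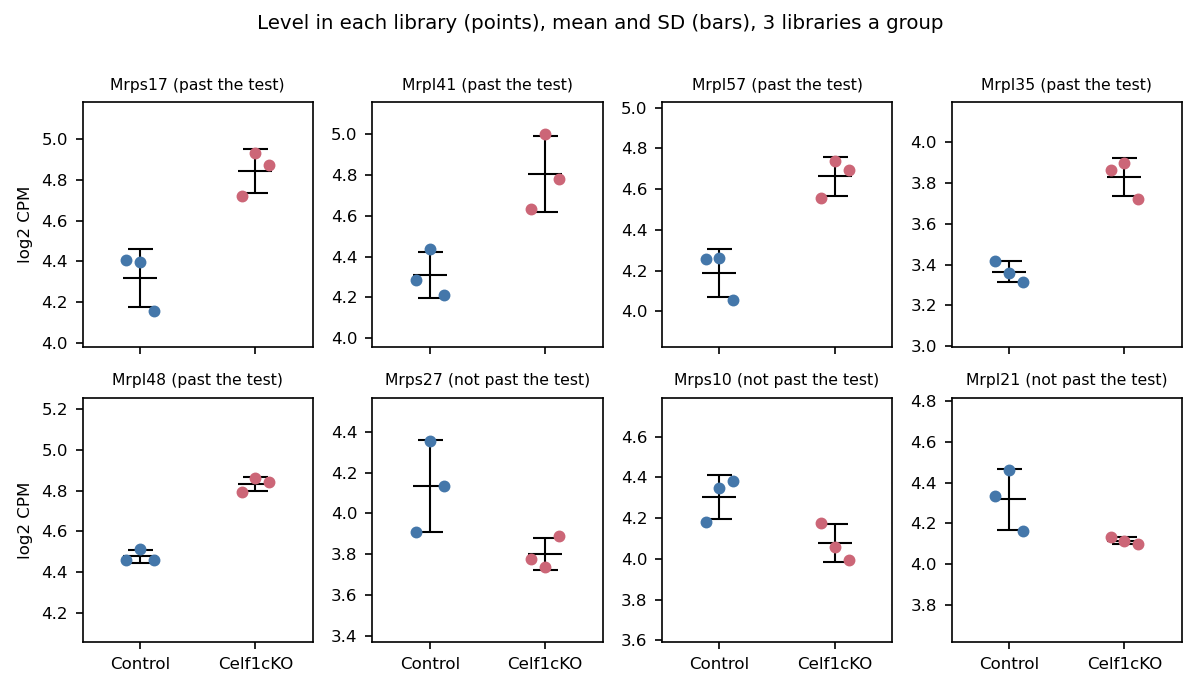
Level in log2 CPM (vertical axes, each spanning 1.2 units) of the 5 mitochondrial ribosomal protein genes that passed the test and of the 3 whose Celf1cKO libraries all lay below the controls. Points are libraries 1 to 3 of each group from left to right, and bars show the mean and SD (n = 3). The groups do not overlap in any panel, and Mrps10 comes closest, with libraries at 4.18 log2 CPM in both groups.

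Whether the 5 passed the test depended on the fit and on the libraries kept, and so did the calls over all genes. With the replicate number added as a block, 3 remained (Mrps17, adjusted p = 0.0378, Mrpl41, 0.0329, and Mrpl57, 0.0442, from limma), while Mrpl35 and Mrpl48 had 0.0509 and 0.0541. In the blocked fit 18.6% of expressed genes passed, and 11.8% as elevated. Without control library 1, 2 or 3, or without Celf1cKO library 2 or 3, 0 members passed limma's test. In those fits 11, 13, 14, 6 and 7 members had an unadjusted p-value under 0.05. Over all genes 596, 1, 438, 436 and 1 were called in them, against 1030 with all libraries. The shares of expressed genes past either p-value threshold in those fits are not given here. Without Celf1cKO library 1, 6 members passed, 4 of them among the 5 and also Mrpl3 and Mrpl23, which were lower, where 25.7% of expressed genes passed. In that fit Mrps17 and Mrpl41 were also called, at log2 fold-changes of 0.58 each, where 18% of expressed genes were called. The direction held in all of these fits, with log2 fold-changes of 0.44 to 0.58 for Mrps17 and 0.34 to 0.37 for Mrpl48.

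The promoters of the 5 elevated genes are shown because genes of the mitochondrial ribosome are known to share binding sites for NRF1, for ETS family factors such as GABP, and for YY1. Each line gives 100 bases before and 50 after the RefSeq transcription start, 5′ to 3′ on the strand of the gene, from GRCm38.p6, and capitals mark a match to a motif on either strand. The windows lie at chr5:129715397-129715546 (+ strand) for Mrps17, chr2:24975049-24975198 (- strand) for Mrpl41, chr14:57826139-57826288 (+ strand) for Mrpl57, chr6:71823735-71823884 (- strand) for Mrpl35 and chr7:100608252-100608401 (- strand) for Mrpl48. Mrps27, which had the most negative log2 fold-change of the genes without overlap, follows for comparison from chr13:99344686-99344835 (+ strand).
Mrps17: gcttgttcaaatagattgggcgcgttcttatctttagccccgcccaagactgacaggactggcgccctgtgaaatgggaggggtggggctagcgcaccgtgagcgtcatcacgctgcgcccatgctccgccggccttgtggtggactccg
Mrpl41: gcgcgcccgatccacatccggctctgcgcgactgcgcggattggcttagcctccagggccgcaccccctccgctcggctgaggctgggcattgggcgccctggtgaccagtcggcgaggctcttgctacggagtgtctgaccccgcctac
Mrpl57: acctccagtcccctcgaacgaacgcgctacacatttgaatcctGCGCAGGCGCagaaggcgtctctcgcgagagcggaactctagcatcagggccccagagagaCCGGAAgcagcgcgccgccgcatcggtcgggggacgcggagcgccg
Mrpl35: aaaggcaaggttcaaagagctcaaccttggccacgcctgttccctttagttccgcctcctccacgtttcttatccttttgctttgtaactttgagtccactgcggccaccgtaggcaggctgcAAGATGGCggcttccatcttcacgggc
Mrpl48: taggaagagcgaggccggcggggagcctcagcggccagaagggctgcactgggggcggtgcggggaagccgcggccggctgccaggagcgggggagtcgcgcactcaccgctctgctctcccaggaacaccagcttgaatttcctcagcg
Mrps27: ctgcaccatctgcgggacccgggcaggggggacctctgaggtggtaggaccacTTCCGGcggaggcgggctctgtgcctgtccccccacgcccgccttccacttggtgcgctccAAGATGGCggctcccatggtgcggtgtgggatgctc

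The motifs searched were the NRF1 palindrome, whose letters are the first capitals of Mrpl57 with any base at the sixth position, CCGGAA for the ETS family and AAGATGGC for YY1, on both strands, and no 2 matches overlapped in any member. Mrpl57 held an NRF1 and an ETS match, Mrpl35 a YY1 match, and Mrps27 an ETS match on the reverse strand and a YY1 match. Mrps17, Mrpl41 and Mrpl48 held none of these motifs in the 150 bases shown. Mrpl48 has 4 RefSeq promoters, not all of which are shown, and they held an ETS match over the 300 bases defined next. Of the other members lower without overlap, whose promoters are not shown, Mrps10 held no match and Mrpl21 an ETS match. Over the 300 bases from 250 before to 50 after the start, promoters were matched for 66 of the 75 genes. The ETS motif was found in 38 of them (57.6%), the NRF1 motif in 13 (19.7%) and the YY1 motif in 12 (18.2%). Among 8557 expressed genes with a promoter of this length, 33.0% held the ETS, 12.6% the NRF1 and 5.70% the YY1 motif. Among all 27025 genes with a promoter the shares were 16.7%, 5.19% and 3.19%. A gene counted as holding a motif when any of its promoters did. A match is a description of the letters and not of a bound site. The mRNAs of NRF1, YY1 and the GABP subunits did not pass the test, with log2 fold-changes of 0.02 for Nrf1, -0.24 for Yy1, -0.03 for Gabpa and 0.18 for Gabpb1.

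Celf1 binds GU-rich elements in mRNAs, and one such element, whose letters are the capitals in the sites below, was searched on the transcript strand of the 3′ untranslated regions. It was found in 2 of the 75 genes (2.67%), against 3.68% of 10417 expressed genes. The 2 sites are shown because they are the only ones among the members, in GENCODE sequence of GRCm38, with the first match in capitals.
Mrpl35: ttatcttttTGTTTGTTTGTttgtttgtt
Mrps5: gttaaaggtTGTTTGTTTGTttgtttgtt
Both regions are long, 3102 bases in Mrpl35 and 2976 bases in Mrps5, while the median 3′ untranslated region was 327 bases in the members and 967 bases in expressed genes. Among regions of at least 800 bases, 2 of 27 members (7.41%) and 6.07% of expressed genes held the element. Mrpl35 was among the 5 elevated genes, whereas Mrps5, a small subunit protein with a bacterial counterpart, did not pass the test. The level of Mrps5 was 4.38, 4.41 and 4.30 log2 CPM in control and 4.47, 4.53 and 4.52 in Celf1cKO libraries (log2 fold-change 0.15, standard error 0.0958, limma adjusted p = 0.338). With the libraries scaled by their total counts Mrps5 passed the test (0.37, limma adjusted p = 0.0320), where 26.3% of expressed genes passed as elevated.

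Lower levels in Celf1cKO lenses did not pass the test in any member. Every Celf1cKO library lay below every control library for 3 members (Mrps27, Mrps10 and Mrpl21), where 16.9% of expressed genes showed this. Every Celf1cKO library lay above every control library for 21 members, where 23.1% of expressed genes did. The upward count is near the background and the downward count below it, which was not tested.

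Mrps27, a pentatricopeptide repeat protein of the small subunit, had levels of 3.91, 4.36 and 4.14 log2 CPM in the controls and 3.78, 3.74 and 3.89 in the Celf1cKO libraries. The control libraries were widely spread (SD 0.225, n = 3), and control library 1 almost met the highest Celf1cKO library. The log2 fold-change was -0.33, with a 95% interval from -0.67 to 0.0023 (limma adjusted p = 0.169). Mrps10, the counterpart of a bacterial small subunit protein, had levels of 4.18, 4.35 and 4.38 log2 CPM in control and 4.18, 4.06 and 3.99 in Celf1cKO libraries (log2 fold-change -0.23, limma adjusted p = 0.225). Mrpl21, a large subunit protein with a bacterial counterpart, had levels of 4.33, 4.46 and 4.16 log2 CPM in control and 4.13, 4.11 and 4.10 in Celf1cKO libraries (log2 fold-change -0.20, limma adjusted p = 0.277). The Celf1cKO libraries of Mrpl21 lay within a narrow range (SD 0.0171, n = 3), and the controls were more widely spread (SD 0.150, n = 3). With the libraries scaled by their total counts in place of the authors' factors, the sign of the Mrpl21 difference turned, to 0.023. Mrps10 and Mrpl21 have pseudogenes 97.9% and 97.2% identical over most of their coding sequence.

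The most negative log2 fold-changes belonged to members whose groups overlapped, which are named here after their values were seen. Mrpl23, which lines the exit of the peptide tunnel in the large subunit, had 4.48, 4.57 and 4.36 log2 CPM in control and 4.36, 3.90 and 3.92 in Celf1cKO libraries (log2 fold-change -0.41, limma adjusted p = 0.122). Celf1cKO library 1 was level with control library 3, and the other Celf1cKO libraries were lower. The coding sequence of Mrpl23 is 100% identical to that of its pseudogene Mrpl23-ps1. Mrpl3 and Mrps15, both with bacterial counterparts, had log2 fold-changes of -0.35 each (limma adjusted p = 0.135 and 0.139), and in both Celf1cKO library 1 was again the highest of its group.

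The intervals of the members were narrow enough to bound most of the differences. In 58 of the 75 genes (77.3%) the 95% interval of the log2 fold-change lay within 0.58 on either side of 0, where 42.8% of expressed genes met this. The share was 88.2% in cytosolic ribosomal protein genes and 80.8% in expressed nuclear genes of oxidative phosphorylation. The median standard error was 0.121 in the members and 0.151 in expressed genes. The largest estimate in either direction was 0.52, and the intervals of the other 17 genes reached past 0.58 on one side. The log2 fold-change was positive in 47 of 75 members (62.7%) and in 50.4% of expressed genes. It was positive in 39.5% of the cytosolic ribosomal protein genes and in 74.4% of the oxidative phosphorylation genes.

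**Figure D2:**
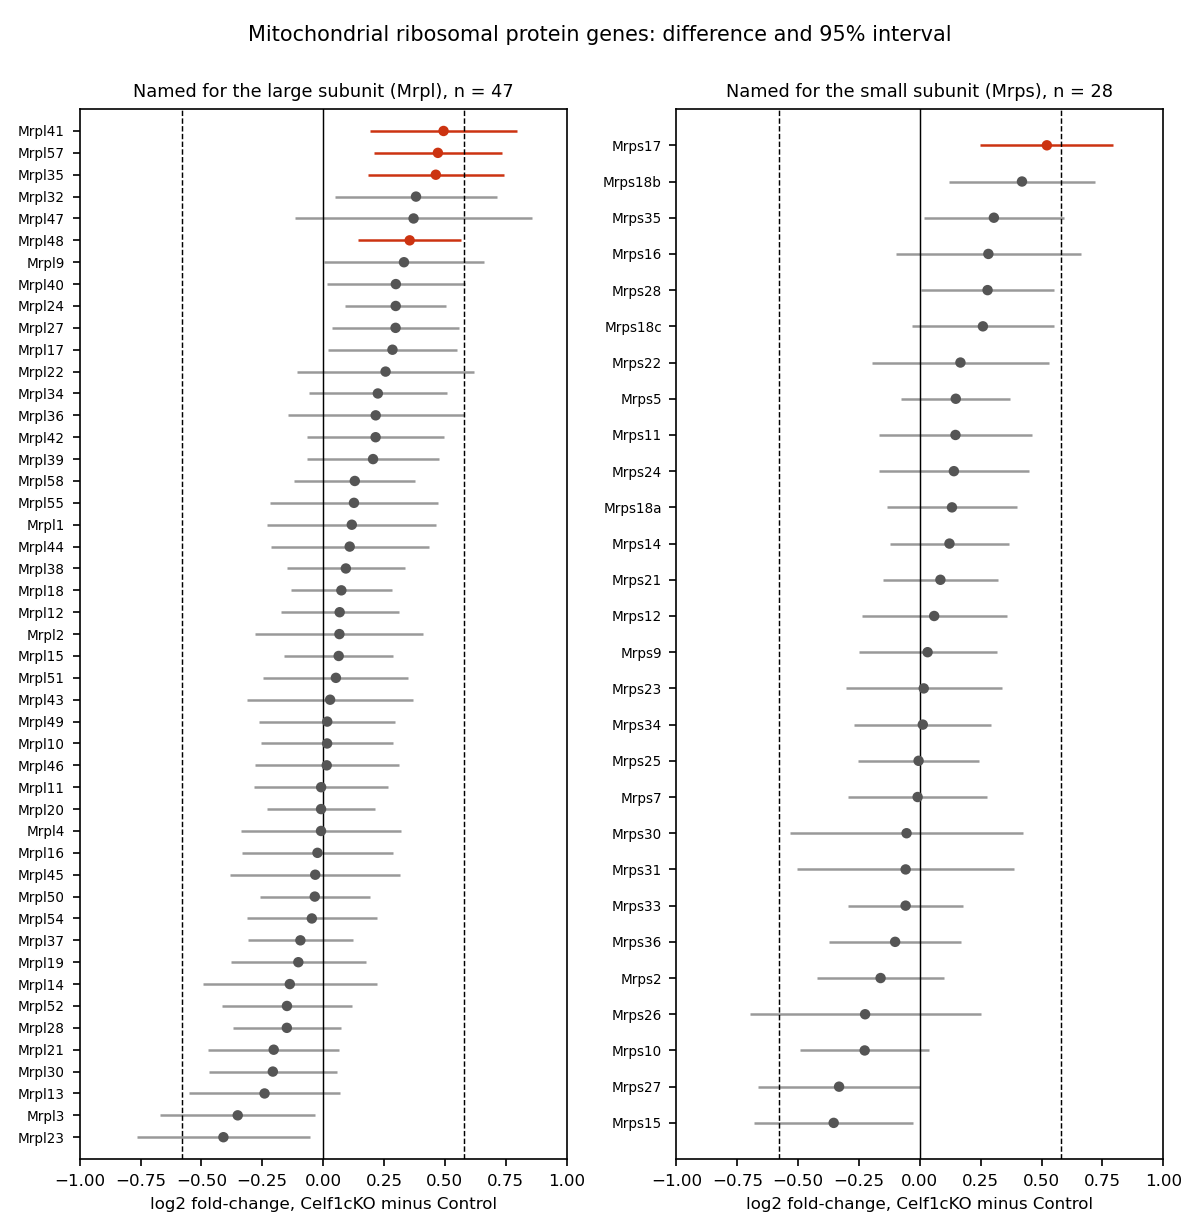
Log2 fold-change, Celf1cKO minus control (horizontal axes), of each of the 75 mitochondrial ribosomal protein genes, sorted within the large subunit (left, 47 genes) and the small subunit (right, 28 genes). Points are estimates and lines 95% intervals from limma with 3 libraries a group, dashed lines mark 0.58 in either direction, and red marks the 5 genes that passed the test. No estimate lies beyond a dashed line. The intervals of Mrps27, Mrps10 and Mrpl21, the members lower without overlap between groups, include 0. Those of the lowest estimates, Mrpl23 and Mrpl3 (left) and Mrps15 (right), whose groups overlap, lie below 0.

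Large and small subunit genes had similar median differences. The median log2 fold-change was 0.067 over the 47 large subunit genes and 0.045 over the 28 small subunit genes, with 0.0041 over all expressed genes. With the libraries scaled by total counts, the median of all expressed genes moved to 0.229, and the medians of the large and small subunit were 0.293 and 0.271, which is again slightly above all genes. Under that scaling 24 members passed the test as elevated, where 26.3% of expressed genes did, and 7 were called (Mrpl32, Mrpl35, Mrpl41, Mrpl48, Mrpl57, Mrps17 and Mrps18b), where 15.6% of expressed genes were called as elevated. In the main fit 4 of the 47 large and 1 of the 28 small subunit genes passed as elevated, where 9.82% of expressed genes did. Members with non-overlapping higher levels numbered 14 of 47 in the large and 7 of 28 in the small subunit, where 23.1% of expressed genes showed this. The interval lay within 0.58 of 0 in 37 large (78.7%) and 21 small subunit genes (75%).

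The sum of CPM over the large subunit genes was 2.17, 2.10 and 2.01 times that over the small subunit genes in control libraries 1 to 3. In Celf1cKO libraries 1 to 3 it was 2.17, 2.15 and 2.12 times as high. The groups overlapped, with means of 2.09 ± 0.0763 in control and 2.15 ± 0.0272 in Celf1cKO lenses (SD, n = 3 each). A ratio within a library does not depend on how the libraries are scaled. Per kilobase of exon, the same ratio was 2.22 ± 0.0418 in control and 2.27 ± 0.0266 in Celf1cKO lenses (SD, n = 3 each).

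Subunit names do not always match the place of the protein in the ribosome. Mrps30 and Mrps18a are built into the large subunit, and Mrps36 is known as a part of the alpha-ketoglutarate dehydrogenase complex rather than of the ribosome. Counted by place, the large subunit held 49 and the small subunit 25 genes, with median log2 fold-changes of 0.067 and 0.059. Mrps30 had levels of 4.93, 4.32 and 4.54 log2 CPM in control and 4.89, 4.36 and 4.37 in Celf1cKO libraries (log2 fold-change -0.055, limma adjusted p = 0.884). In both groups library 1 was the highest for Mrps30, well apart from the other libraries. Mrps36 had a log2 fold-change of -0.10 (limma adjusted p = 0.592), and it has 4 near-identical pseudogenes.

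The 3 members of the Mrps18 family, which share ancestry with 1 bacterial protein, differed in their values. Mrps18b, in the small subunit, had 3.19, 3.01 and 3.14 log2 CPM in control and 3.52, 3.61 and 3.47 in Celf1cKO libraries, without overlap (log2 fold-change 0.42, standard error 0.128, limma adjusted p = 0.0754). Mrps18c, in the small subunit and closest to the bacterial protein, had 3.26, 3.31 and 3.18 log2 CPM in control and 3.45, 3.60 and 3.47 in Celf1cKO libraries (log2 fold-change 0.26, limma adjusted p = 0.207). Mrps18a, in the large subunit, had 4.75, 4.65 and 4.47 log2 CPM in control and 4.84, 4.78 and 4.65 in Celf1cKO libraries (log2 fold-change 0.13, limma adjusted p = 0.470). The groups of Mrps18a overlapped, and those of the other two did not, although none passed the test. Per kilobase of exon, the mean levels were 9.66 CPM for Mrps18c, 7.0 CPM for Mrps18a and 4.83 CPM for Mrps18b, and with the length of the principal transcript Mrps18a was the highest, at 29.2 CPM per kilobase. A pseudogene, Gm13552, is 99.8% identical to Mrps18b over 417 of the 765 bases of its coding sequence.

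Members with and without a bacterial counterpart were also compared. The 44 genes with a counterpart had a median log2 fold-change of 0.072, and 2 of them passed the test. The 31 genes without one had a median of 0.017, and 3 of them passed, where 14.6% of expressed genes passed. Of the Mrps18 family, only Mrps18c was counted as having a counterpart, and Mrps18a and Mrps18b were counted without one.

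The members varied in the same direction between control libraries. Averaged over the large subunit genes, the controls stood at 4.49, 4.56 and 4.35 log2 CPM, and averaged over the small subunit genes at 4.21, 4.27 and 4.08 log2 CPM. In Celf1cKO libraries 1 to 3 the means were 4.55, 4.58 and 4.53 log2 CPM for the large and 4.25, 4.26 and 4.22 log2 CPM for the small subunit. Control library 3 was thus the lowest for both subunits, and the Celf1cKO libraries lay close to each other.

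Control library 3 was the lowest of its group in 55 of 75 members (73.3%), where it was lowest in 41.5% of expressed genes. Control library 2 was the highest in 46 members (61.3%), against 39.4% of expressed genes. The median level of expressed genes was 4.26, 4.29 and 4.26 log2 CPM in the controls, which differed far less. Control library 3 also had the highest sum of retinal markers, 13.4 CPM against 3.58 and 1.43 CPM in controls 1 and 2, and the part of retinal cells in its lower levels was not tested. Without control library 3 the median log2 fold-change of all 75 members was 0.0060, and without control library 2 it was 0.11, against 0.064 with all libraries. The median SD of a member between libraries was 0.141 in the control and 0.0820 in the Celf1cKO group. Over 6798 genes within the members' range of levels, it was 0.152 and 0.151.

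**Figure D3:**
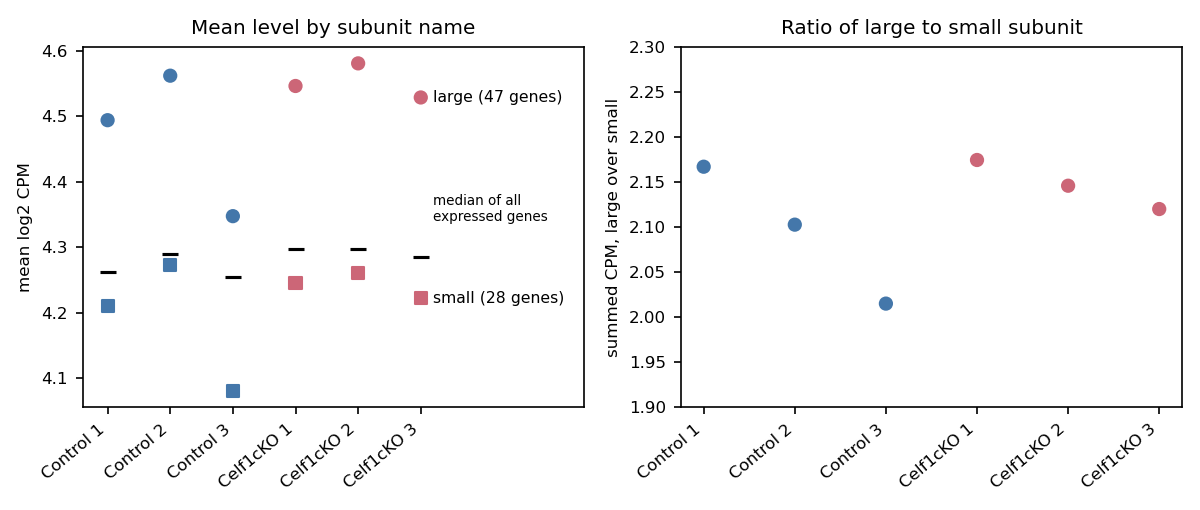
Left, mean log2 CPM of the large (circles) and small (squares) subunit genes in each library, with dashes for the median of all expressed genes. Right, summed CPM of the large over the small subunit genes, on an axis from 1.9 to 2.3. Control libraries are blue and Celf1cKO libraries red. Control library 3 is lowest for both subunits, at 4.35 and 4.08 log2 CPM. The ratios of the groups overlap between 2.12 and 2.17, with control library 3 lowest at 2.01.

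Levels of different genes were compared per kilobase of exon, as the mean CPM over all 6 libraries divided by the exon length of the gene. They ranged from 1.87 to 44.4 CPM per kilobase over the members. The median was 9.80 CPM per kilobase for the large and 7.45 CPM per kilobase for the small subunit genes, and 4.06 CPM per kilobase for all expressed genes. With the length of the principal transcript in place of all exons, the order of the subunits turned, with medians of 14.5 CPM per kilobase for the large and 15.9 CPM per kilobase for the small subunit genes. The genes of the cytosolic ribosome (76 genes) had a median of 192 CPM per kilobase, and nuclear subunits of oxidative phosphorylation (78 expressed genes) one of 41.6 CPM per kilobase.

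Mrpl28, a large subunit protein with a bacterial counterpart, had the highest level per kilobase of exon, 46.7 ± 4.04 CPM per kilobase in control and 42.1 ± 1.73 in Celf1cKO lenses (SD, n = 3 each). Mrpl54, a mitochondrial addition to the large subunit, followed with 42.5 ± 4.72 and 41.0 ± 2.59, and Mrps21, a small subunit protein with a bacterial counterpart, with 38.9 ± 3.09 and 41.2 ± 1.80 CPM per kilobase (SD, n = 3 each). The spreads of these 3 genes overlap in the Celf1cKO group, so that their order is not resolved there. The order depended on the length used. With the length of the principal transcript, Mrpl42 was the highest (88.3 CPM per kilobase), followed by Mrpl52 (74.2) and Mrps21 (73.1), and Mrpl28 ranked 4th (57.4). Mrpl28, Mrpl54 and Mrps21 did not pass the test, with log2 fold-changes of -0.15, -0.046 and 0.084.

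Mrps35, a mitochondrial addition to the small subunit, had the lowest level per kilobase of exon, 1.67 ± 0.153 CPM per kilobase in control and 2.06 ± 0.140 in Celf1cKO lenses. Mrpl47, a large subunit protein with a bacterial counterpart, followed with 1.72 ± 0.423 and 2.21 ± 0.305, and Mrps10 with 2.44 ± 0.178 and 2.09 ± 0.136 CPM per kilobase (SD, n = 3 each). The spreads of Mrps35 and Mrpl47 overlap in both groups. The order of Mrps10 depended on the length used, since its exons cover 8.079 kilobases. With the length of the principal transcript it ranked 25th of 75, while Mrps35 ranked 69th and Mrpl47 74th. Mrps35 did not overlap between groups (log2 fold-change 0.30, limma adjusted p = 0.147), and Mrpl47 did (0.37, adjusted p = 0.270).

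**Figure D4:**
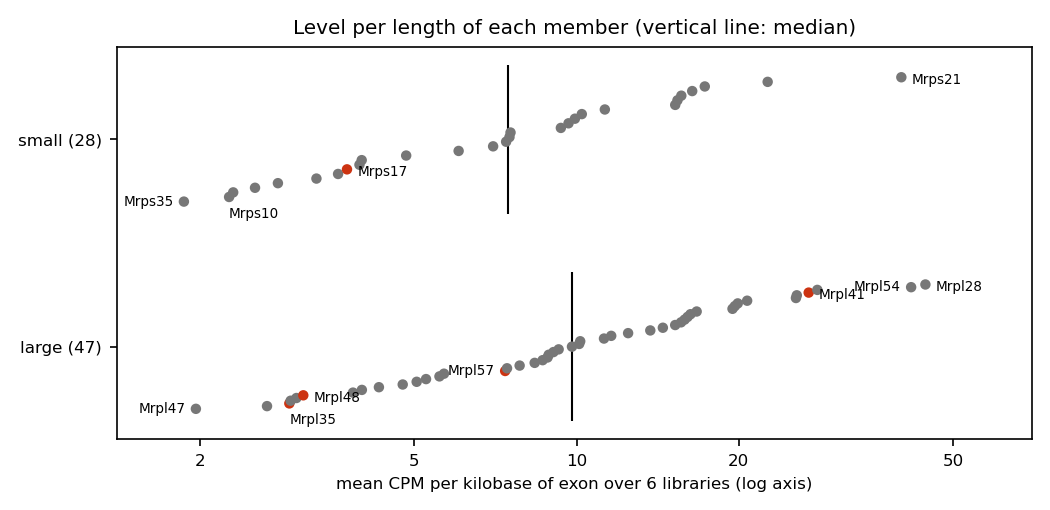
Mean CPM per kilobase of exon over 6 libraries (horizontal axis, log scale) of the 47 large and 28 small subunit genes, each sorted from bottom to top, with black lines at the medians of 9.80 and 7.45. Red marks the 5 genes that passed the test, which lie between 2.93 CPM per kilobase (Mrpl35) and 27.0 CPM per kilobase (Mrpl41).

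Of the other proteins of the mitochondrial ribosome, 5 carry symbols of another form, and none passed the test. Ptcd3, a pentatricopeptide repeat protein of the small subunit, had the largest difference, with 6.15, 6.17 and 5.93 log2 CPM in control and 5.83, 5.81 and 5.71 in Celf1cKO libraries. Its groups did not overlap, and the log2 fold-change was -0.30 (standard error 0.0956, limma adjusted p = 0.0838). With the scaling factors taken without the crystallin genes, Ptcd3 passed the test (-0.32, limma adjusted p = 0.0440). Dap3, a GTP-binding protein of the small subunit, had a log2 fold-change of 0.20 (limma adjusted p = 0.258), and with total-count scaling it passed (0.43, limma adjusted p = 0.0266). For the small subunit proteins Chchd1 and Aurkaip1 it was -0.23 and 0.12 (limma adjusted p = 0.323 and 0.534). Gadd45gip1, of the large subunit, had the widest spread, with 4.36, 4.35 and 3.83 log2 CPM in control and 3.54, 4.13 and 4.53 in Celf1cKO libraries (log2 fold-change -0.12, limma adjusted p = 0.801). In all 5, as in most members, control library 3 was the lowest control.

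Genes that act with the ribosome included larger differences than any of its own proteins showed. Of 27 assembly factors measured, 1 passed the test and was called, where 14.6% of expressed genes passed and 9.68% were called. Noa1, a GTPase needed for building the small subunit, was reduced and was called, with 4.79, 4.96 and 4.72 log2 CPM in control and 4.27, 3.66 and 3.79 in Celf1cKO libraries (log2 fold-change -0.92, standard error 0.174, limma adjusted p = 0.0200). The groups did not overlap, and Celf1cKO library 1 was the nearest to the controls. Without 1 library the log2 fold-change of Noa1 ranged from -1.10 to -0.80. Its adjusted p from limma exceeded 0.05 in each such fit except that without Celf1cKO library 1, up to 0.0969 without Celf1cKO library 3. Over all genes, between 1 and 1916 were called in such fits.

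Of 11 translation factors measured, 1 passed the test, where 14.6% of expressed genes passed. Gfm2, which releases ribosomes after termination together with the recycling factor Mrrf, was reduced, with 4.70, 4.64 and 4.75 log2 CPM in control and 4.08, 4.25 and 4.11 in Celf1cKO libraries (log2 fold-change -0.55, standard error 0.102, limma adjusted p = 0.0195). It fell short of the fold-change threshold and was not called, and with total-count scaling it did not pass the test (-0.32, limma adjusted p = 0.0828). Mrrf itself had a log2 fold-change of 0.05, and Tufm, which brings tRNAs to the ribosome, one of -0.10, and neither passed. Without control library 1, 2 or 3, or without Celf1cKO library 3, Gfm2 missed the threshold (limma adjusted p = 0.0597, 0.0667, 0.0590 and 0.105). Over all genes 596, 1, 438 and 1 were called in those fits.

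Of 10 genes of mitochondrial transcription and RNA handling, 1 passed the test and was called, where 14.6% of expressed genes passed and 9.68% were called. Lrpprc, which keeps mitochondrial mRNAs stable together with Slirp, was elevated and was called, with 4.97, 5.0 and 5.02 log2 CPM in control and 5.65, 6.52 and 6.19 in Celf1cKO libraries (log2 fold-change 1.12, standard error 0.203, limma adjusted p = 0.0187). This was a 2.18-fold rise, a larger estimate than that of any mitochondrial ribosomal protein gene. The groups did not overlap, and Celf1cKO library 1 was again nearest to the controls. Slirp had a log2 fold-change of 0.11 (limma adjusted p = 0.630). Without control library 1, 2 or 3, or without Celf1cKO library 3, Lrpprc missed the threshold (limma adjusted p = 0.0571, 0.0723, 0.0610 and 0.0880). Over all genes 596, 1, 438 and 1 were called in those fits.

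Of 9 regulators of mitochondrial gene expression, none passed the test. The largest difference was that of Myc, with 0.16, 0.76 and 1.12 log2 CPM in control and -0.52, -0.23 and -0.12 in Celf1cKO libraries (log2 fold-change -0.97, limma adjusted p = 0.0980). Its average was below 1 log2 CPM, from 28 to 84 reads per library. Transcripts of the mitochondrial genome itself were not analysed here.

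**Figure D5:**
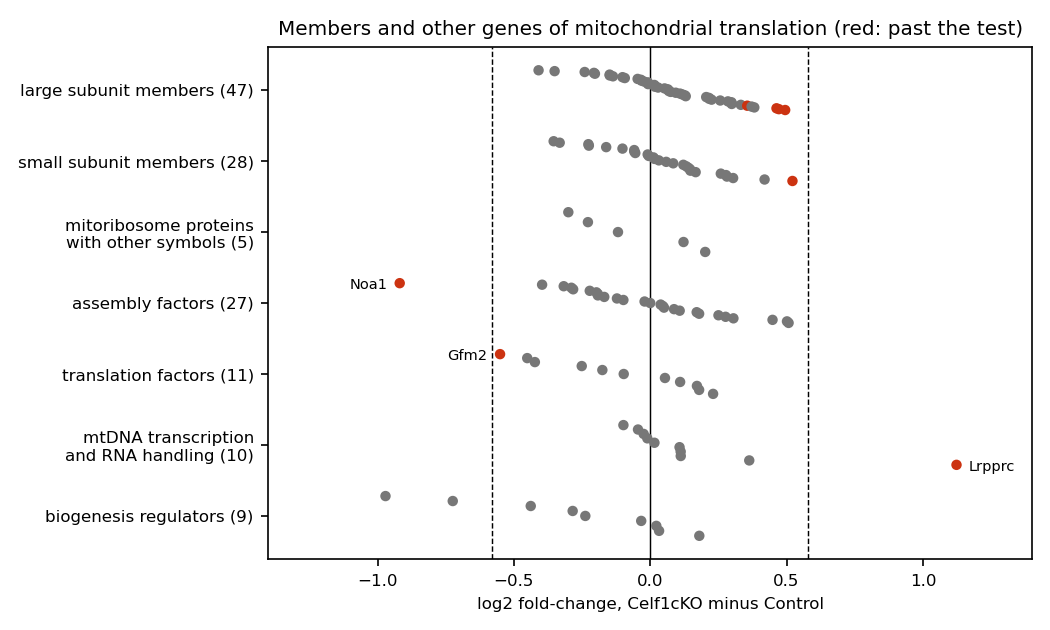
Log2 fold-change, Celf1cKO minus control (horizontal axis), of the 75 members and of genes that act with them, by list, with the number of genes measured in parentheses. Each point is a gene, sorted within its list, red points passed the test, and dashed lines mark 0.58 in either direction. The members stay within the dashed lines, while Lrpprc (1.12) and Noa1 (-0.92) lie outside, as do Myc (-0.97) and Ppargc1b (-0.72), which did not pass.

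The cytosolic ribosome and the oxidative phosphorylation complexes were measured for comparison. The 76 cytosolic ribosomal protein genes had a median log2 fold-change of -0.043, and 2 passed the test, both elevated. Of the 78 expressed nuclear oxidative phosphorylation genes, 10 passed as elevated and 1 as reduced, with a median of 0.094. For both sets the background was 9.82% of expressed genes passing as elevated and 4.75% as reduced. Whether the mitochondrial ribosomal protein genes differ from either group was not tested.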

How the data were processed

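RNA from pooled P0 lenses, 3 control and 3 Celf1cKO libraries, was sequenced from strand-specific paired-end libraries. Adaptor-trimmed reads were aligned by the authors to GRCm38.p6 with STAR (2.7.8a per the submitters' processing notes), those mapped uniquely were counted with featureCounts (2.0.0), and genes of very low CPM were left out. The deposited values are log2 CPM of each library after edgeR's normalization by the authors, with a prior count that scales with the library and is near 2 reads. The authors also deposited an average log2 CPM, which served as the expression threshold. The columns of the authors' own comparison (log2 fold-change, F score, p-value and FDR) were deposited in the same table and were not used.

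Reads were recovered from the steps of the deposited log2 values, and 100% were whole within 0.05. A level of 3 reads corresponds to 0.0609 to 0.0807 CPM, below all members. Samples were grouped by their labels. Since the deposited values are normalized and not counts, limma (3.58.1, R 4.3.3) with a variance trend took the place of edgeR, fitted by group to all 13931 genes with Benjamini-Hochberg adjustment (prior degrees of freedom 3.4). With 3 libraries against 3, an exact permutation test cannot go below p = 0.1, and none was used. Libraries with the same number deviated together (r = 0.30, 0.42 and 0.35), which is the check behind the replicate block. The labels share these numbers, but no source describes a pairing. Scripts were tested on simulated data. The members and lists were chosen with earlier results of these data known.

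The genes named were every called member, the 5 largest rises and falls without overlap, the 3 highest and lowest per kilobase, the genes placed apart from their names, ribosome proteins with other symbols, and from each list the called genes and the largest difference. Fewer than 5 members fell without overlap. Mrpl48, Mrpl3, Mrpl23, Mrps15 and Mrps5, and the genes given beside the list leaders, were added after their values were seen. Gene positions, exon lengths and untranslated regions came from GENCODE M21, in which 13928 identifiers were found and 3 were not. Near-identical copies were sought with blastn 2.17.0 (at least 95% identity over 50% of the coding sequence) and found for 17 members. Exon bases were shared with a gene on the same strand in 5 members and on the opposite strand in 27. Promoters came from RefSeq. Plots used matplotlib 3.10.9 (Python 3.11.15).

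Alternatives comprised the replicate block, a fit without the variance trend, log2(CPM + 1), total-count scaling, median centring, scaling without the 16 crystallin genes, limma voom on recovered reads, adjustment over expressed genes, no fold-change threshold, subunits by place, and each library left out. The count of members past the test and the principal transcript length were added after seeing the data.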

Additional observations from a re-analysis of the deposited data

How the results depend on the processing

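The number of called members was 0 in all fits except total-count scaling (7, with 5 of the large and 2 of the small subunit) and no fold-change threshold (5), and it was 0 to 2 over fits that each left out 1 library (0 to 1 in each subunit). Members past limma's test fell from 5 to 3 with the replicate block, 2 with median centring and 0 without a variance trend (14 at an unadjusted p-value under 0.05), were 24 with total-count scaling, and ranged from 0 to 6 with 1 library left out. Called genes overall were 421 without a variance trend, 1867 with total-count scaling and 1550 without a fold-change threshold, against 1030, and ranged from 1 (without control library 2 or Celf1cKO library 3) to 1916 (without Celf1cKO library 1). The replicate block changed no other call of a named gene, and without a variance trend Noa1, Gfm2 and Lrpprc missed the threshold too. Celf1 missed the threshold without a variance trend (-1.60, limma adjusted p = 0.0693) and ranged from -1.99 to -1.36 with 1 library left out.

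Medians under total-count scaling were 0.293 for the large and 0.271 for the small subunit. With 1 library left out they ranged from 0.0060 to 0.106 and from 0.0082 to 0.109, and the log2 difference of the large to small ratio from 0.0081 to 0.061. Under total-count scaling 22 of 75 members turned sign, from lower to higher, none of them past the test in the main scaling. Among the genes chosen by the rule for names these were Mrpl21 (0.023), Mrpl28 (0.077), Mrpl54 (0.18), Mrps30 (0.17) and Mrps36 (0.12), and 16 of the 62 tested genes of mitochondrial ribosome assembly, translation and transcription and their regulators (partner genes) turned, with Gadd45gip1 (0.11), Tufm (0.13) and Gabpa (0.19) among them. In at least 1 fit with a library left out, 23 members and 16 partner genes turned sign, none of them past the test, with Nrf1, Gabpa, Gabpb1 and Mrrf among the partners. The genes chosen by the rule among them were Mrpl54 (-0.13 to 0.029, with 0.029 without control library 2 and 0.0062 without Celf1cKO library 2), Mrps30 (-0.23 to 0.11, with 0.11 without control library 1, and 0.037 and 0.029 without Celf1cKO libraries 2 and 3) and, outside the members, Gadd45gip1 (-0.35 to 0.15, with 0.15 without Celf1cKO library 1). Of the genes chosen by the rule that missed the test, Ptcd3 passed with scaling without crystallin genes. Dap3, Mrps18a, Mrps18b, Mrps18c, Mrps21 and Mrps35 passed with total-count scaling. Of the members given in the text for other reasons, Mrps5, Mrpl42, Mrpl32, Mrpl9, Mrpl40, Mrpl24, Mrpl27, Mrpl17 and Mrps28 passed with total-count scaling too. The cause of these changes was not tested. Counting error and variation between libraries were not separated.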
